A study of Mus musculus with 12 samples.

Results

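Genes that mark astrocytes were followed through the 6 cortex RNA-seq libraries of a mouse study of Larp1, an RNA-binding protein that controls mRNAs with a terminal oligopyrimidine (TOP) motif at their 5′ end. The 8 genes, Aldh1l1, Slc1a2, Slc1a3, Gja1, Aqp4, Gfap, S100b and Aldoc, were chosen as established astrocyte markers. No cut on their values here was used, but earlier results of these data were known when they were chosen. They are 8 of the GENCODE genes to which the transcripts of the deposited files were summed. All 8 had at least 10 reads in every library, as did 15002 genes in all. The labels describe 12 cortex samples, which are 3 replicates each of Nestin-Cre mice (Larp1 WT) and Nestin-Cre mice with both Larp1 alleles flanked by loxP sites (Larp1 KO), each replicate in 2 parts. All mice therefore carry Nestin-Cre, a driver that acts in neural progenitor cells, and the labels do not give the recombined share of astrocytes. The methods place the RNA in posterior cortex of male C57BL/6J mice, and the labels used here give no age.

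The 6 deposited quantifications are named by mouse (678, 687, 688, 698, 700 and 703), and nothing in the labels ties a mouse number to a genotype. No genotype was assigned, the level of Larp1 was not used to assign one, and WT and KO were not compared. Every value below is that of 1 library of 1 mouse, or the range and median of the 6, so a difference between libraries may hold genotype, animal, dissection and library preparation together, and these cannot be told apart. That the files hold the cortex samples was inferred from the labels. Markers of excitatory cortical neurons were high (median TPM, a share of all transcripts corrected for their length, of 681 for Nrgn and 476 for Camk2a), and the cerebellar markers Gabra6 and Pcp2 had at most 1 read in any library. Libraries held 34689262 to 44463362 reads assigned to transcripts. No pair of libraries differed by as little as read sampling alone would give, since the chi-square per degree of freedom over genes ran from 14.1 to 63.1.

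Astrocytes are the glial cells that take up glutamate and potassium around synapses, pass metabolites to neurons and line the blood vessels of the brain with their end-feet. They take up most synaptic glutamate through the transporters encoded by Slc1a2 (GLT-1) and Slc1a3 (GLAST), exchange ions and metabolites through connexin 43 (Gja1) and move water through aquaporin 4 (Aqp4). Gfap encodes the glial filament protein that rises when astrocytes react to injury, S100b a calcium-binding protein, Aldoc the brain form of the glycolytic enzyme aldolase, and Aldh1l1 a folate enzyme that marks astrocytes widely. In whole tissue, fewer cells of a type and less RNA per cell cannot be told apart.

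TOP mRNAs are recognised by Larp1 through their first bases, so the first 20 bases of the most abundant annotated isoform of each gene are shown from GENCODE M21 (GRCm38), 5′ to 3′, with the first 5 bases in capitals. A TOP start was counted where base 1 is C and the next 4 bases are all C or T. Aqp4 was searched in the same way and is not printed.
Slc1a2-202, chromosome 2, from 102658659, plus strand: AAAGAagtcgccccaggctg
Slc1a3-201, chromosome 15, from 8710764, minus strand: GAAGTctcccagacgttcta
Gja1-201, chromosome 10, from 56377330, plus strand: ACGCTtttacgaggtatcag
Gfap-201, chromosome 11, from 102897131, minus strand: AGAGGcagggcaggatggag
S100b-201, chromosome 10, from 76253853, plus strand: CACACccagttctctctgca
Aldoc-202, chromosome 11, from 78324200, plus strand: GAACAaaaggagatgtggga
Aldh1l1-201, chromosome 6, from 90550805, plus strand: CTCTCtgcacaagacccgag
One gene, Aldh1l1, began with these letters, which makes 1 of 8, while 2.35% of the main isoforms of 13618 detected protein-coding genes did. With every annotated isoform of each gene searched, the count stayed at 1 of 8 genes, against 10.7% of the detected protein-coding genes. These are annotated starts, which were not measured in these libraries.

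The glutamate transporter Slc1a2 was the most abundant of the 8 genes, and Aldh1l1 the least. Slc1a2 (chr2:102658659-102790784, plus strand) had 487 TPM in mouse 678, 446 in 687, 459 in 688, 478 in 698, 405 in 700 and 468 in 703. TPM is per transcript length, so levels can be compared between genes. Its median of 464 TPM ranked 28 among 21871 protein-coding genes of the nuclear chromosomes. The second astrocytic glutamate transporter, Slc1a3 (chr15:8634124-8710764, minus strand), had 92.4, 94.2, 99.7, 97.2, 80.9 and 105.9 TPM in the same order of mice, a median of 95.7 and rank 424. Slc1a2 stood 4.43 to 5.27 times above Slc1a3 within a library, a ratio that moved by 1.19 times over the 6 libraries. The neuronal transporter Slc1a1 (EAAC1) had a median of 22.4 TPM, so that Slc1a2 was 19.0 to 21.5 times as abundant in TPM.

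Aldoc (chr11:78322968-78327781, plus strand) was second, with 215, 209, 192, 212, 186 and 237 TPM, a median of 211 and rank 119. The aldolase found in most cells, Aldoa, had a median of 757 TPM, and Aldoc stood at 0.259 to 0.311 of it. Mouse 687 had the highest of these ratios, and the other 5 libraries lay between 0.259 and 0.277.

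The gap junction gene Gja1 (chr10:56377330-56402513, plus strand) had 55.2, 58.4, 54.3, 57.7, 43.7 and 55.6 TPM, a median of 55.4 and rank 896. Mouse 700 was low and the other 5 libraries lay close together. Gjb6 (connexin 30), the other main connexin of astrocytes, had a median of 26.1 TPM and varied against Gja1, with a Gja1 to Gjb6 ratio from 1.65 in mouse 700 to 2.76 in mouse 703. The water channel gene Aqp4 on chromosome 18 had 26.7, 25.2, 23.3, 25.1, 21.7 and 24.0 TPM, a median of 24.5 and rank 2333. Its values spanned 1.23 times, and the potassium channel gene Kcnj10, whose product shares the end-feet with aquaporin 4, held an Aqp4 to Kcnj10 ratio of 0.766 to 0.943.

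Gfap (chr11:102887336-102900912, minus strand) had 52.6, 43.0, 40.8, 56.4, 39.7 and 41.2 TPM, a median of 42.1 and rank 1293. Mice 678 and 698 were high, and the other 4 lay between 39.7 and 43.0. S100b (chr10:76253853-76261159, plus strand) had 28.2, 33.9, 29.8, 33.2, 26.7 and 41.7 TPM, a median of 31.5 and rank 1779. Mouse 703 was the highest for S100b and among the low 4 for Gfap, so that the S100b to Gfap ratio went from 0.536 in mouse 678 to 1.01 in mouse 703. Aldh1l1 (chr6:90486427-90600203, plus strand) had 17.4, 14.2, 12.7, 17.5, 16.1 and 14.2 TPM, a median of 15.1 and rank 3787, with mice 678, 698 and 700 above the other 3.

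The order of the 8 levels, from Slc1a2 through Aldoc, Slc1a3, Gja1, Gfap, S100b and Aqp4 to Aldh1l1, was nearly the same in every library. Each gene was above the next in 6 of 6 libraries, except Gfap and S100b, where Gfap was higher in 5 of 6 and mouse 703 had the reverse. The ranges of neighbours overlapped for Gja1 with Gfap and for Gfap with S100b, so these 2 steps of the order were within the spread between libraries. The other 5 steps had ranges that did not overlap, though those of S100b (lowest 26.71 TPM) and Aqp4 (highest 26.66) nearly met. Within a library S100b was as little as 1.06 times Aqp4.

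**Figure D1:**
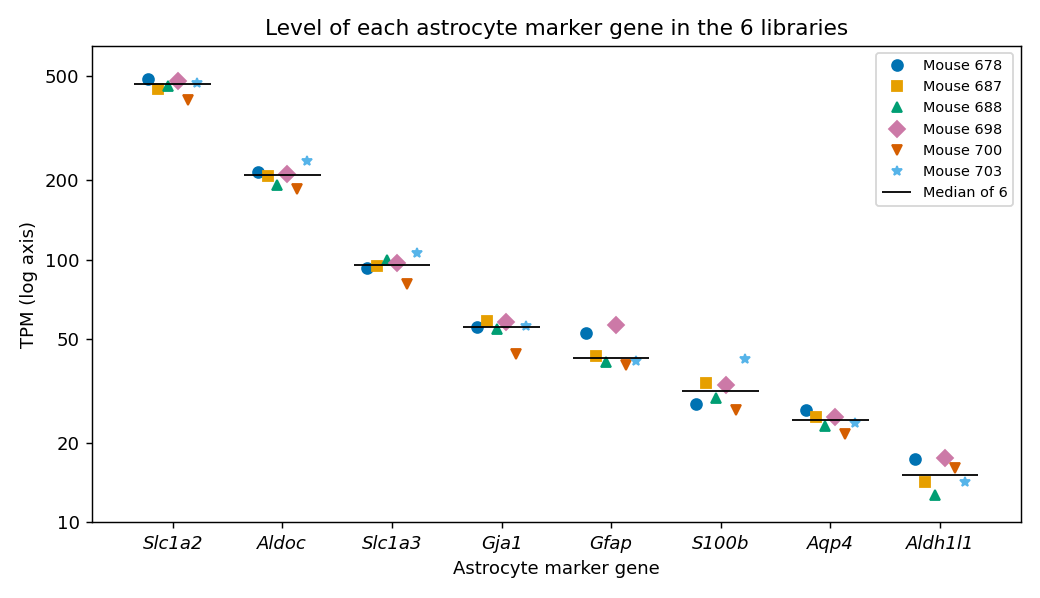
TPM (log axis) of each astrocyte marker gene in the 6 libraries, 1 symbol per mouse, with a bar at the median. Slc1a2 lies between 405 and 487 TPM and Aldh1l1 between 12.7 and 17.5, and the symbols of Gfap and S100b overlap in height.

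In TPM, mouse 700 had the lowest value of 7 of the 8 genes, and this count changed with the scale on which the library was expressed. TPM is a share of everything quantified, and in these rRNA-depleted libraries non-coding RNAs of the class misc RNA took 36.4% (mouse 703) to 47.8% (mouse 700) of it. Nuclear protein-coding genes held 22.7% of TPM in mouse 700 and 28.8% in mouse 703, and the median detected protein-coding gene moved by 0.36 log2 between these libraries. With TPM rescaled over nuclear protein-coding genes, the shift of the median gene over the 6 libraries was 0.05 log2. On that scale mouse 700 was lowest for 1 gene and mouse 703 for 4. On counts scaled by TMM, mouse 700 was lowest for 2 genes and mouse 703 for 4. With DESeq2 size factors each was lowest for 3. Sums and differences of the 8 genes between libraries are therefore given on the rescaled TPM, and values given below simply as TPM are as deposited and hold this shift.

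On rescaled TPM, the 8 genes summed to 0.374% of the protein-coding signal in mouse 678, 0.376% in 687, 0.373% in 688, 0.383% in 698, 0.362% in 700 and 0.343% in 703. The highest sum was 1.12 times the lowest, and mouse 703 was the low one. In TPM as deposited, the sums were 0.0820% to 0.0988%, with a highest to lowest ratio of 1.21 and mouse 703 at the top, so the place of mouse 703 turned with the scale. As a share of expected counts, which are not divided by length, the sum was lowest in mouse 700 (0.450%) and stood at 0.503% in mouse 703. In this unit its highest to lowest ratio was 1.21. Slc1a2 was the largest part of the sum in every library.

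Single genes ranged from steady to moderately variable. Aldoc moved least, from 786 in mouse 688 to 850 in mouse 687 on rescaled TPM (1.08 times), and Slc1a3 and Slc1a2 spanned 1.15 and 1.16 times. Gja1 and Aqp4 each spanned 1.23 times, S100b 1.34, Aldh1l1 1.43 and Gfap 1.55. The median over the 8 genes was 1.23, beside 1.36 over all 15002 detected genes. One of the 8 genes, Gfap, was above a ratio of 1.5, while 33.9% of all detected genes were. The detected genes were not matched to the 8 for level in these 2 comparisons.

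To set this against level, the spread of each gene, as the SD of its 6 values of log2(CPM + 1) with CPM scaled by TMM, was compared with the running median SD of genes of similar level. Genes in the top 5% of this excess SD were called the most variable. None of the 8 astrocyte genes was among them (0 of 8), where 5% of the 15002 genes are by construction. Gfap came nearest, with an excess SD of 0.11 log2 (percentile 89.9), then Aqp4 with 0.10 (percentile 88.6) and Aldh1l1 with 0.10 (percentile 88.2). S100b had an excess of 0.04 and Gja1 of 0.01. Slc1a2, Slc1a3 and Aldoc varied no more than genes of their level, with excess SDs of -0.0015, -0.04 and -0.05, and Aldoc stood at percentile 14.9. The read count limits none of these values, since the lowest count of any of the genes in a library was 1258, for Aldh1l1.

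**Figure D2:**
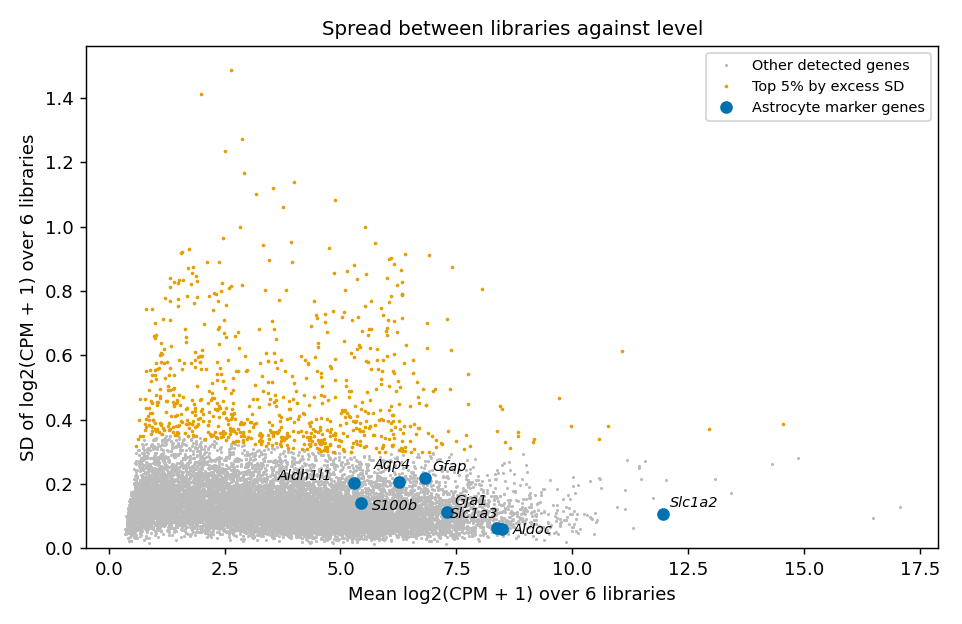
SD of log2(CPM + 1) between the libraries against its mean, for 15002 detected genes (grey), the top 5% by excess SD (orange) and the 8 astrocyte marker genes (blue). Gfap, Aqp4 and Aldh1l1 sit above the middle of the grey cloud and Slc1a3 and Aldoc below it, and none is orange.

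The genes that varied followed more than 1 course. On rescaled TPM, Gfap was 202 in mouse 678, 175 in 687, 167 in 688, 221 in 698, 175 in 700 and 143 in 703. Aldh1l1 was 66.9, 58.0, 52.2, 68.6, 70.9 and 49.4. Both were above their median in mice 678, 698 and 700, though Gfap in mouse 700 by less than 0.01 log2, and both were lowest in mouse 703. Aqp4 was 102.3, 102.5, 95.6, 98.5, 95.8 and 83.2, also lowest in mouse 703. S100b ran the other way in that mouse. It was 108, 138, 122, 130, 118 and 145, lowest in mouse 678 and highest in mouse 703. Slc1a2 departed from its median by no more than 0.04 log2 in 5 libraries and was lower by 0.18 log2 in mouse 703. This depended on the scale, and log2(CPM + 1) comes from counts that are not divided by length. Centred on its mean there, Slc1a2 was at -0.02 in mouse 703 and at -0.18 in mouse 700. On that scale Gfap, Aldh1l1 and Aqp4 again had their lowest values in mouse 703 (-0.32, -0.24 and -0.20), and S100b its lowest in mouse 678 (-0.18) and its highest in mouse 703 (0.19). In TPM as deposited, the lowest library was 700 for Gfap, Aqp4 and S100b and 688 for Aldh1l1.

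Markers of mature oligodendrocytes, the myelin-forming cells, were high and low in the same libraries as Aldh1l1, and in part as Gfap. The 8 oligodendrocyte genes, among them Mbp, Mog, Mag, Mobp, Cnp, Cldn11 and Opalin, summed to 0.297%, 0.197%, 0.214%, 0.290%, 0.286% and 0.173% of rescaled TPM in the order of mice above. Mice 678, 698 and 700 were the high 3 for this list and mouse 703 the lowest. All 8 of its genes spanned over 1.5 times on rescaled TPM, beside 33.9% of all detected genes. Of the 8, 6 were among the most variable genes, at a background of 5%. Mbp, for myelin basic protein, had 319, 192, 212, 275, 277 and 195 TPM. The oligodendrocyte precursor list did not follow the same split, with 0.0222% to 0.0261% of rescaled TPM and 0 of 6 genes among the most variable. The part of the oligodendrocyte levels in the Gfap and Aldh1l1 values was not tested.

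**Figure D3:**
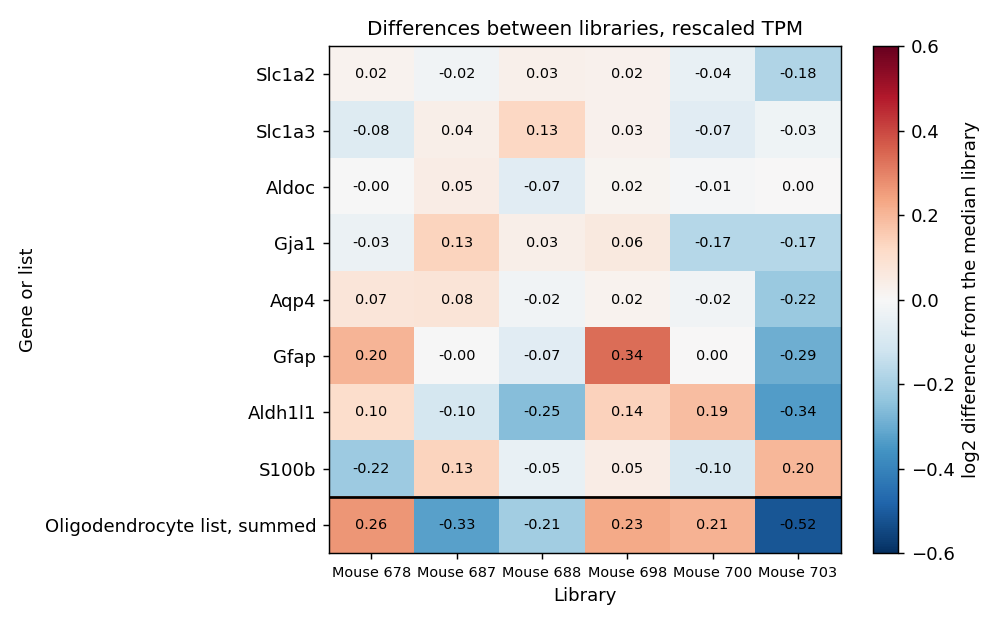
Log2 difference of each astrocyte marker gene from its median library, on TPM rescaled over nuclear protein-coding genes, with the summed oligodendrocyte list in the last row. Gfap ranges from -0.29 in mouse 703 to 0.34 in mouse 698, S100b from -0.22 in mouse 678 to 0.20 in mouse 703, and Aldoc stays within 0.07 of its median.

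Between 1 and 12 isoforms were annotated for each of the 8 genes, and the shares of a gene's TPM that each took were compared between libraries. S100b had a single isoform, Gja1-201 held nearly all of Gja1 and Gfap-201 held 93.5% to 94.8% of Gfap. Slc1a2 and Aqp4 were the genes whose isoform shares moved most. The estimates of short and long isoforms rest on the quantification by RSEM of reads that the isoforms share.

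Most Slc1a2 signal came from Slc1a2-202 (11595 bases), with 67.4%, 78.8%, 75.1%, 69.1%, 59.3% and 79.9% of the gene's TPM. The shorter Slc1a2-203 (1957 bases) took 22.9%, 10.8%, 15.4%, 22.5%, 31.5% and 10.6%. Its level was 111, 48.1, 70.4, 107.6, 127.6 and 49.6 TPM, a span of 2.65 times for a gene whose total TPM spanned 1.20 times. Mice 678, 698 and 700 were high for Slc1a2-203, which are also the high 3 for the oligodendrocyte list above. The part of that list in the isoform shares was not tested. In reads, Slc1a2-203 is a small part of the gene, with 2.01% to 7.56% of its expected counts. Division by length thus gives this isoform more weight in the gene's TPM than in CPM. Slc1a2 was lowest in mouse 703 on rescaled TPM and in mouse 700 on CPM. The part of the isoform shares in this was not tested.

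The 2 isoforms have separate first exons, joined to the same second exon, and they end at the same stop codon with a last exon of 9322 bases in Slc1a2-202 and 281 in Slc1a2-203. The first 30 coding bases are shown to set out how the protein's start differs, with the bases from the first exon in capitals and the shared second exon in lower case (GRCm38, plus strand).
Slc1a2-202, first-exon coding bases at chr2:102659285-102659301: ATGGCATCAACAGAGGGtgccaacaatatg
Slc1a2-203, first-exon coding bases at chr2:102706476-102706483: ATGGTCAGtgccaacaatatgcccaagcag
The first-exon coding part has 17 bases in Slc1a2-202 and 8 in Slc1a2-203. The starts of these isoforms also differ in the 20 bases after the annotated 5′ end, which in Slc1a2-203 (chromosome 2, from 102706438) are CAGAActtggaagccagtgc and hold no TOP start.

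In TPM, Aqp4 was divided among 3 coding isoforms. Aqp4-201, the longest with 5054 bases, had 62.0%, 63.0%, 56.1%, 49.4%, 42.5% and 54.8% of the gene's TPM. Aqp4-205 (1106 bases) had 20.4%, 11.6%, 25.4%, 29.5%, 35.4% and 20.8%, and Aqp4-210 held 16.8% to 25.4%. In reads the longest dominated, with 78.2% to 88.6% of expected counts for Aqp4-201 and 3.15% to 12.6% for Aqp4-205. Mouse 700 had the lowest share of the most abundant isoform for Slc1a2, for Aqp4 and also for Slc1a3, where Slc1a3-201 took 80.2% in mouse 700 and 82.8% to 87.2% in the other 5. Over all genes, those with main isoforms of at least 4000 bases stood below those of at most 1500 bases by 0.06 log2 in mouse 700 and by 0.08 in mouse 678, and above them by 0.12 in mouse 688. The difference was -0.06 in mouse 687, -0.01 in 698 and 0.08 in 703, and its part in the isoform shares was not tested.

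Gfap-202 is a minor isoform with another last exon, and it took 5.17% to 6.54% of Gfap TPM. The last 30 coding bases of the Gfap isoforms are shown for the different ends of their proteins, with the stop codon in capitals (GRCm38, minus strand).
Gfap-201, chr11:102888677-102888706: aagcaggagcacaaggacgtggtgatgTGA
Gfap-202, chr11:102891396-102891425: gaaaatggagccctgccagctctccctTAG
Gfap-202 had 2.11 to 3.65 TPM and was highest in mouse 698, as Gfap-201 was with 52.8 TPM. The split between these ends was therefore steadier than the level of the gene. Aldoc was divided between Aldoc-202 (83.1% to 84.3%) and the upstream start Aldoc-201 (15.1% to 16.5%), the second of which was highest in mouse 698. Aldh1l1-201 took 68.8% to 75.1% of Aldh1l1, lowest in mouse 688, where the isoform annotated for nonsense-mediated decay, Aldh1l1-207, was highest with 12.3%.

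The wider list of 36 other astrocyte genes was detected in full. On rescaled TPM it summed to 1.39% in mouse 703 and 1.45% in mouse 688, the low pair, and to 1.51% to 1.59% in the other 4. Of its 36 genes 2 were among the most variable, Fabp7 and Hes5, beside the background of 5%. The most abundant were Apoe, for the main lipid carrier of the brain (median 652 TPM), Cst3, for a secreted protease inhibitor (540), Sparcl1, for a secreted matrix protein (496), and Glul, for the enzyme that turns glutamate into glutamine (475). Apoe had 767, 682, 594, 636, 624 and 667 TPM. Glul stood at 1.02 to 1.10 times Slc1a2 in 5 libraries and at 0.881 in mouse 688.

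The 4 genes of this list with the largest spans in deposited TPM had medians of 3.01 (Chrdl1) to 11.6 TPM (Dio2). Fabp7, a fatty acid binding protein of radial glia and astrocytes, had 5.83, 14.8, 7.92, 7.90, 7.01 and 11.1 TPM, highest in mouse 687. Hes5, a target of Notch signalling, had 8.46, 4.25, 8.21, 9.56, 8.99 and 14.2 TPM and was lowest in that same mouse. Chrdl1, a secreted BMP antagonist, spanned 2.01 times in TPM and 1.69 on rescaled TPM, and Dio2, the enzyme that activates thyroid hormone, 1.75 and 1.60 times. On rescaled TPM Gjb6 spanned more than Dio2, at 1.67 times.

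Genes known to rise in reactive astrocytes were low in level beside the 8 markers. Of 12, 7 had at least 10 reads in every library, and 1 of these 7, Cd44 (1.40 to 2.53 TPM, named for this count), was among the most variable, beside the background of 5%. All 7 spanned over 1.5 times on rescaled TPM, beside 33.9% of all detected genes, and the other 5 could not enter these counts. The 12 genes summed to 0.00672% to 0.00926% of rescaled TPM, highest in mouse 687, beside 0.343% to 0.383% for the 8 astrocyte markers. Vim, for vimentin, had 4.97 to 7.86 TPM, and Gfap stood 5.86 to 8.65 times above it. Serpina3n had 1.64 to 3.20 TPM, Hspb1 1.62 to 3.56, Cp 1.69 to 3.45 and Osmr 0.32 to 0.63. In mouse 698, which had the most Gfap, Vim was at 7.86 TPM, nearly equal to 7.85 in mouse 678. Cd44 was at its highest there, with 2.53 TPM as in mouse 687, and S1pr3 (1.74) was above its median of 1.62. Hspb1 and Cp were lowest there, and Serpina3n (2.01) and Osmr (0.37) were below their medians of 2.19 and 0.47.

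Among related genes, the astrocyte form was the most abundant of those listed for the SLC1 transporters, connexins and aquaporins. After Slc1a2, Slc1a3 and Slc1a1, Slc1a4 had a median of 14.4 TPM, Slc1a6 of 2.37 and Slc1a5 of 0.53. Among aquaporins, Aqp11 followed Aqp4 with 5.72 TPM, Aqp9 had 0.46 and Aqp5 0.13. After Gja1 and Gjb6, the oligodendrocyte connexins Gjc3 and Gjb1 had 4.22 and 2.56 TPM, Gjb2 had 3.33, and Gjd2, Gjc1 and Gja4 0.80 to 1.22. S100b was close in level to S100a1 (29.5 TPM), with a ratio of 0.856 to 1.26, and S100a16 (20.2), S100a10 (15.0), S100a13 (6.04), S100a6 (5.89), S100a11 (3.19), S100a4 (0.69) and S100a9 (0.11) followed. By median, Gfap was below the neurofilament genes Nefl (77.1 TPM) and Ina (48.2, with overlapping ranges) and above Nefm (29.6), Nefh (8.63), Synm (4.38), Prph (1.31), Nes (0.40) and Des (0.17). Aldh1l2, the mitochondrial relative of Aldh1l1, had 0.40 TPM.

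Room for reads of related or overlapping genes was checked by shared sequence and by exon overlap. No stretch of 50 bases in the main isoform of 7 of the 8 genes occurred in a transcript of another gene, and in Slc1a2-202 0.433% of such stretches did. S100b overlaps the opposite-strand gene Dip2a (median 11.4 TPM). The exons of the pair share no base, but reads from introns were not examined. Aldh1l1 shares 11.1% of its exonic bases with the opposite-strand gene Gm15756, which was at a median of 0 TPM. The sources used here do not say whether reads were counted by strand, and without it reads from a gene and its antisense partner cannot be told apart.

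Levels of other cell types gave the frame for these values. On rescaled TPM, as for all sums in this paragraph, excitatory neuron markers (Nrgn, Camk2a) summed to 0.648% to 0.749%, highest in mouse 703. The astrocyte sum was lowest in mouse 703 on this scale. It was lowest in mouse 700 in expected counts, and highest in mouse 703 in TPM. Inhibitory neuron markers, led by Sst (166 TPM) and Gad1 (86.4), summed to 0.136% to 0.171%. Microglia markers, among them Csf1r (25.5), summed to 0.0510% to 0.0604%. Endothelial and pericyte markers, led by Vtn (16.3) and Rgs5 (7.70), summed to 0.0146% to 0.0215%, and were highest in mouse 687, the library with the highest reactive sum. The precursor list was led by Olig1 (24.6) and Pdgfra (10.2). Of the genes listed for other brain regions, Calb2 had 12.2 TPM in mouse 703 and 4.27 to 6.69 in the other 5. Drd1, high in striatum, had 6.34 in mouse 703, 5.24 in 687 and 5.23 in 688. It had 2.39 to 3.15 in mice 678, 698 and 700. Expression of these genes within cortex was not examined. The part of dissection in the values of mouse 703 was not tested.

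**Figure D4:**
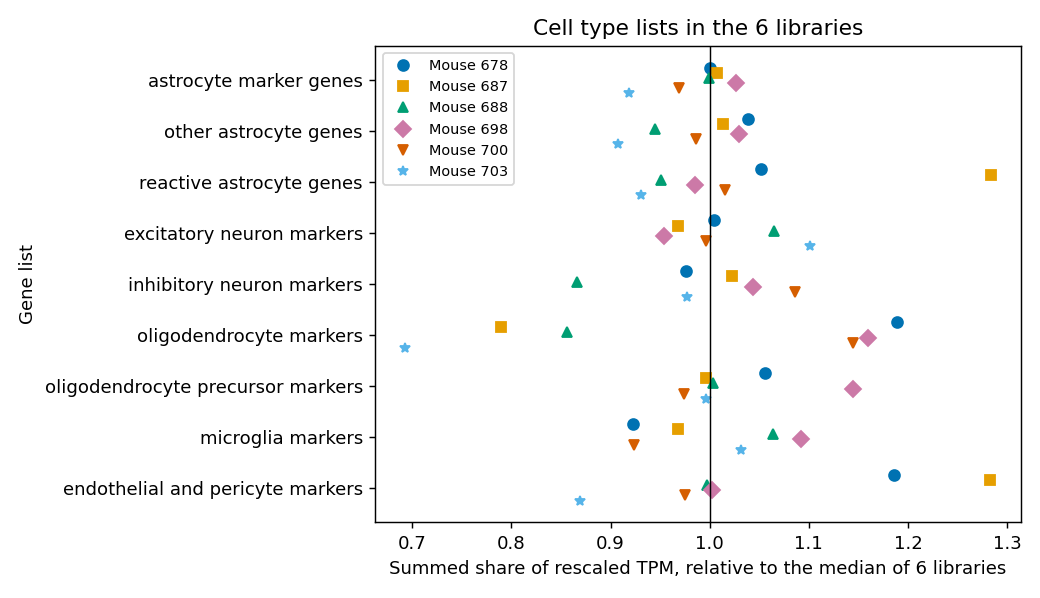
Summed share of rescaled TPM of the 8 astrocyte marker genes and of 8 other lists, relative to each list's median over the 6 libraries, 1 symbol per mouse. The astrocyte markers (highest over lowest 1.12) lie closer together than the oligodendrocyte list, which runs from 0.173% in mouse 703 to 0.297% in mouse 678. Other astrocyte genes (1.14), excitatory neurons (1.15), oligodendrocyte precursors (1.17) and microglia (1.18) lie nearly as close as the markers. Inhibitory neurons (1.25), reactive astrocyte genes (1.38) and endothelial cells and pericytes (1.48) lie in between.

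The genes whose course over the 6 libraries lay nearest to the mean course of the 8 astrocyte markers were Cln3, Slc25a20, H2-K1, Slc16a13, Wdsub1, Rabl2, Cacna2d4, Mrfap1, Dele1 and Desi1. Likeness was the root mean square difference of centred log2(CPM + 1) values over 6 libraries, and these genes differed from the mean course by 0.023 log2 (Cln3) to 0.030 (Desi1) among 12795 genes with at least its SD. The astrocyte markers themselves differed from the mean of the others by 0.06 for Gja1 and Aldoc to 0.19 for Aldh1l1. These distances cannot be compared with those of the 10 genes, which were picked for being nearest. None of the 10 nearest genes was in the astrocyte lists. With 6 points and many genes searched, this is a description of these libraries.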

How the data were processed

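Ribosomal RNA-depleted libraries were made from cortex. Per the labels, the authors used cutadapt, STAR and RSEM with mm10, with no version stated, and the methods name UCSC gene annotations. The deposited files hold, for each of 142351 transcripts, RSEM's expected count and TPM, the units used here, and 24 other value columns (length, effective length, FPKM, isoform percent over the 6 files) were not used. Transcripts were matched by ID, without version, to GENCODE M21 (99.4% matched), and expected counts and TPM were summed per gene. The 6 libraries were described without groups, since no label ties a file to a genotype, and no test between groups was made.

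Expected counts were rounded and scaled with edgeR 4.0.16 (TMM) or, as an alternative, DESeq2 1.42.0 size factors in R 4.3.3. Genes with at least 10 counts in every library entered the spread analysis, on log2(CPM + 1), with a running median over 501 genes. The step was tested on simulated data in which every gene was given the same spread beyond read sampling. These libraries need not share that setting. Alternatives were other scales, no filter, a pseudocount of 0.25 and leaving out each library.

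The 8 genes were fixed as members. Others were named by rule: of the other and reactive astrocyte lists the 4 most abundant and the 4 with the largest highest to lowest ratio among genes with at least 10 counts in every library, of other cell type lists the 2 most abundant, of related genes those with a median TPM of at least 0.1, and the 10 nearest in course. Some genes that the rule names are not reported here. Members of the oligodendrocyte list, Gabra6, Pcp2, Kcnj10, Dip2a, Gm15756, Cd44 and S1pr3 were named outside this rule. The members and lists were chosen with earlier results of these data known.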

Additional observations from a re-analysis of the deposited data

Results flagged for a closer look

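With 6 libraries, a value was set apart where its gap to the nearest other library, divided by the range of all 6 (Dixon's ratio), passed the 95% limit for 6 values. Of 94 quantities examined 6 passed, and chance alone sets apart about 1 in 20. Gja1 TPM was low in mouse 700 (ratio 0.717), but on rescaled TPM mouse 700 (192.9) did not stand apart from mouse 703 (193.1). The list of genes chosen for other brain regions, by share of TPM, was high in mouse 703 (0.760), where Calb2 and Drd1 were highest. The share of Aldh1l1-201 within Aldh1l1 was low in mouse 688 (0.742), and that of Aldoc-201 within Aldoc was high in mouse 698 (0.734). Aldoc over Aldoa was high in mouse 687 (0.650), and Glul over Slc1a2 was low in mouse 688 (0.644). The causes were not tested.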

How the results depend on the processing

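None of the 8 genes was among the most variable under any of the 5 other settings or with any library left out. The median summed share was 0.0949% of TPM, 0.374% of rescaled TPM and 0.508% of TMM-scaled CPM, which are different denominators, and 0.0924% to 0.0974% with a library left out. The highest to lowest ratio of the sum was 1.21 in TPM, 1.12 on rescaled TPM and 1.21 on TMM-scaled CPM. In TPM it was 1.08 to 1.21 with a library left out, the lowest without mouse 700. The median ratio over single genes was 1.32 in TPM and 1.19 to 1.32 with a library left out, again lowest without mouse 700. The median share of the main isoform was 84.0% of TPM and 94.7% of expected counts, because the latter are not divided by length. Otherwise the cause was not tested. No paired analysis was possible because no replicate number is tied to a file. Depth limits the reactive list, where 5 of 12 genes fell under 10 counts in some library.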
